A study of Mus musculus with 4 samples.

Results

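The genes described here are 10 that carry the glutathione and NRF2 arm of the defence against ferroptosis, a form of cell death driven by oxidised membrane lipids. They are the regulators Nfe2l2 and Keap1, the cystine importer subunits Slc7a11 and Slc3a2, the glutathione synthesis genes Gclc, Gclm and Gss, the reductases Gsr and Txnrd1, and the lipid peroxidase Gpx4. They were chosen by function, with earlier results of these data known, and are 10 of the 21887 protein-coding genes of the annotation used. Every deposited peak that touched a gene body or its 10 kb flanks was taken, which gave 63 peaks in haematopoietic stem cell (HSC) replicate 1, 125 in HSC replicate 2, 104 in leukaemia stem cell (LSC) replicate 1 and 97 in LSC replicate 2 (389 in all). These libraries are called HSC1, HSC2, LSC1 and LSC2 in the text.

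The study profiled mouse bone marrow cells by CUT&Tag, in which an antibody bound to chromatin directs a transposase that cuts and tags the DNA beside it. The antibody was raised against Ruvbl2, an ATPase found in several chromatin remodelling complexes. HSC were sorted as LSK cells negative for CD48 and positive for CD150 from Nup214 fl/+ mice, which have 1 floxed and 1 normal allele of the nucleoporin gene Nup214. LSC were sorted as Lin-, Sca-1-, c-Kit+, CD16/32+ and CD34+ cells from Nup214 fl/+ mice with an MLL-AF9-driven leukaemia. Both groups therefore share the Nup214 fl/+ genotype, and the labels used here name no Cre for either. There were 2 libraries per group, and nothing in the labels says whether they came from separate animals. As the cell type field names haematopoietic stem cells even for the LSC libraries, groups were taken from the titles. The LSC gate is also the gate of normal granulocyte-monocyte progenitors, so maturation and leukaemia cannot be told apart between the groups. Peaks are not expression, so the labelled cell types could not be checked against marker genes.

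The 4 peak lists held between 159842 and 284974 peaks on the main chromosomes. Within each list peaks were ranked by their deposited −log10 p, rank 1 being the strongest, and the 20000 strongest are called listed. The weakest listed peak had a fold over background of 22.7 in HSC1, 12.7 in HSC2, 28.4 in LSC1 and 18.2 in LSC2. Folds and ranks therefore compare peaks within a library, and a fold in 1 library is not set against a fold in another. The pileup, the number of fragments over a summit, was recovered from the fold and gives the counts behind each value. The background pileup was 2.66 in HSC1, 4.34 in HSC2, 4.46 in LSC1 and 3.72 in LSC2. Pileups are therefore not compared between libraries either. Replicate 1 of both groups shared 1 style of peak names and replicate 2 another, and the share of genes listed at their start also followed the replicate number, as given below. No control library was used here, the labels give a goat anti-rabbit secondary antibody without the host of the Ruvbl2 antibody, and how much of the signal depends on Ruvbl2 was not tested.

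KEAP1 holds the transcription factor NRF2, the product of Nfe2l2, for degradation in unstressed cells, and oxidants or electrophiles release it to bind antioxidant response elements at its target genes. An importer made of the transport subunit Slc7a11 and the heavy chain Slc3a2 brings in cystine. Cystine is then reduced to the cysteine that limits glutathione synthesis. Glutamate-cysteine ligase (catalytic subunit Gclc, modifier subunit Gclm) and glutathione synthetase (Gss) build glutathione, Gsr regenerates it from its oxidised form, and the selenoprotein Gpx4 uses it to reduce lipid peroxides. Blood stem cells are known for their sensitivity to oxidants, which makes this pathway a common subject in haematopoiesis.

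Promoters of Nfe2l2, Slc3a2, Txnrd1 and Gpx4 are printed because listed peaks of at least 2 libraries overlapped them, with that of Gclm, a standard NRF2 target, for comparison. The Slc3a2 sequence belongs to its second start, 9.47 kb into the gene, and not to the 5′ end of its record. Each is the 250 bases before an annotated start, from RefSeq on GRCm38.p6, the coordinates of mm10, read 5′ to 3′ on the gene's strand. Capitals mark matches to the antioxidant response element core TGACNNNGC, the GC box GGGCGG and the ETS core CCGGAAG, each searched on both strands.
Nfe2l2, chr2:75704664-75704913, minus strand: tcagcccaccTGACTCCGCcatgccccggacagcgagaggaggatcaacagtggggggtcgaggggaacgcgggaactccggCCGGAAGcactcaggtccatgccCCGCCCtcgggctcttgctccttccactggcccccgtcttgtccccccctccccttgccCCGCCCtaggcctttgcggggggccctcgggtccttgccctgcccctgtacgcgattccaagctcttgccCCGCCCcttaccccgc
Slc3a2, chr19:8713898-8714147, minus strand: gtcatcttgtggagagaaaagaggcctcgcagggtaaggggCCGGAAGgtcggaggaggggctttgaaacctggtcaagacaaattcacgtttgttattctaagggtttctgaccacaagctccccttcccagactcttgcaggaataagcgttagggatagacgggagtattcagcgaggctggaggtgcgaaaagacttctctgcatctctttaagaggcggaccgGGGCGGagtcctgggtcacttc
Txnrd1, chr10:82858956-82859205, plus strand: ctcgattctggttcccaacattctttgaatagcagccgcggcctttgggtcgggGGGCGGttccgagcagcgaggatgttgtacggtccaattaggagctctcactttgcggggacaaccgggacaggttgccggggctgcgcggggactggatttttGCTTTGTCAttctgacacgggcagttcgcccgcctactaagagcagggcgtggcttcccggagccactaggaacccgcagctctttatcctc
Gpx4, chr10:80053315-80053564, plus strand: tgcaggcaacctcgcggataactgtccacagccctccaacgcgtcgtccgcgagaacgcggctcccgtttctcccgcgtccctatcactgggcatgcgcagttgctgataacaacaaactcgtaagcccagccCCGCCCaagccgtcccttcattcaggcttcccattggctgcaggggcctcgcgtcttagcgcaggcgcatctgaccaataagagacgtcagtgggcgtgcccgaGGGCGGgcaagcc
Gclm, chr3:122245307-122245556, plus strand: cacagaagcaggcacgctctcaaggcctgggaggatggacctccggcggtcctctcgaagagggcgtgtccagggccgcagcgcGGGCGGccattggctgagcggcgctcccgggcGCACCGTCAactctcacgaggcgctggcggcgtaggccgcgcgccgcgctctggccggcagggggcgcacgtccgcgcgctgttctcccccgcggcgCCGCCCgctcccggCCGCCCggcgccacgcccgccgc
The element core was matched in 3 of the 13 member promoters in the table, those of Gclm, Nfe2l2 and the Txnrd1 start at 82859206, against 10.2% of all 32851 promoters. It lay 240 bases before the Nfe2l2 start as TGACTCCGC, and on the other strand 92 bases before the Txnrd1 start as GCTTTGTCA and 134 bases before the Gclm start as GCACCGTCA. The GC box was matched in 8 of the 13 (32.7% of all promoters) and the ETS core in 2 of the 13, Nfe2l2 and Slc3a2 (6.91% of all promoters). The E-box CACGTG (6.02% of all promoters), the NRF1 core GCGCATGCG (1.45%) and the ATF4 element TGATGNAAT (0.816%) had no match in the member promoters. The Slc7a11 and Gss promoters held none of the 6 motifs. The Nfe2l2 window was overlapped by a peak in all 4 libraries, which held for 2.86% of all promoters, and the Slc3a2, Txnrd1, Gpx4 and Gss windows by peaks in 3. Gclm and Keap1 windows were overlapped in 1 library each and the Slc7a11 window in none. Whether the motifs bear on the peaks was not tested.

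Nfe2l2 (chromosome 2, 75675513 to 75704663, minus strand), which encodes NRF2, carried a strong start peak in every library. Its peak over the 5′ end ranked 701 in HSC1, 180 in HSC2, 568 in LSC1 and 312 in LSC2, with pileups of 230, 349, 582 and 354 fragments. The folds over each library's own background were 63.1, 65.5, 106.7 and 75.2. All 4 libraries had it among their 1000 strongest peaks, and the ranks of the 2 groups overlapped. The 4 peaks, 1467, 1165, 1384 and 2450 bp wide, overlapped in all 6 pairs and shared 75703815 to 75704891, a stretch of 1077 bp that reaches from the gene into the printed promoter. The summits did not coincide. They lay 1065 and 1064 bp inside the gene in HSC1 and LSC1, where the peaks also began at the same base, and 386 and 202 bp inside it in replicate 2. A second region inside Nfe2l2, 75684660 to 75687603, had a peak in all 4 libraries and was listed only in LSC2 (rank 3198). A region at 75698777 to 75699312 had peaks in both HSC libraries and in neither LSC library, at rank 1286 (fold 56.0) in replicate 1 and rank 67036 (fold 8.80) in replicate 2.

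Keap1 (chromosome 9, 21229730 to 21239332, minus strand), the adaptor that marks NRF2 for degradation, had a peak at its start in LSC2 alone. There the peak at 21239323 to 21239730 ranked 9726 with a fold of 22.2, its summit 100 bp before the start, and a wider one at 21235384 to 21238346 ranked 2185 with a fold of 36.8. HSC2 had a peak at 21234847 to 21235811 inside the gene (rank 2540, fold 23.0) that overlapped the wider LSC peak without reaching the start window. The other 3 libraries had no peak in the start window, so the 2 LSC libraries differed from each other there. A region upstream of Keap1 had peaks in HSC1 (rank 5116, fold 41.0), LSC2 (rank 13326, fold 20.5) and HSC2 (rank 128262, fold 6.36), and the HSC2 peak lay within 1000 bp of an end of the neighbouring S1pr5.

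**Figure D1:**
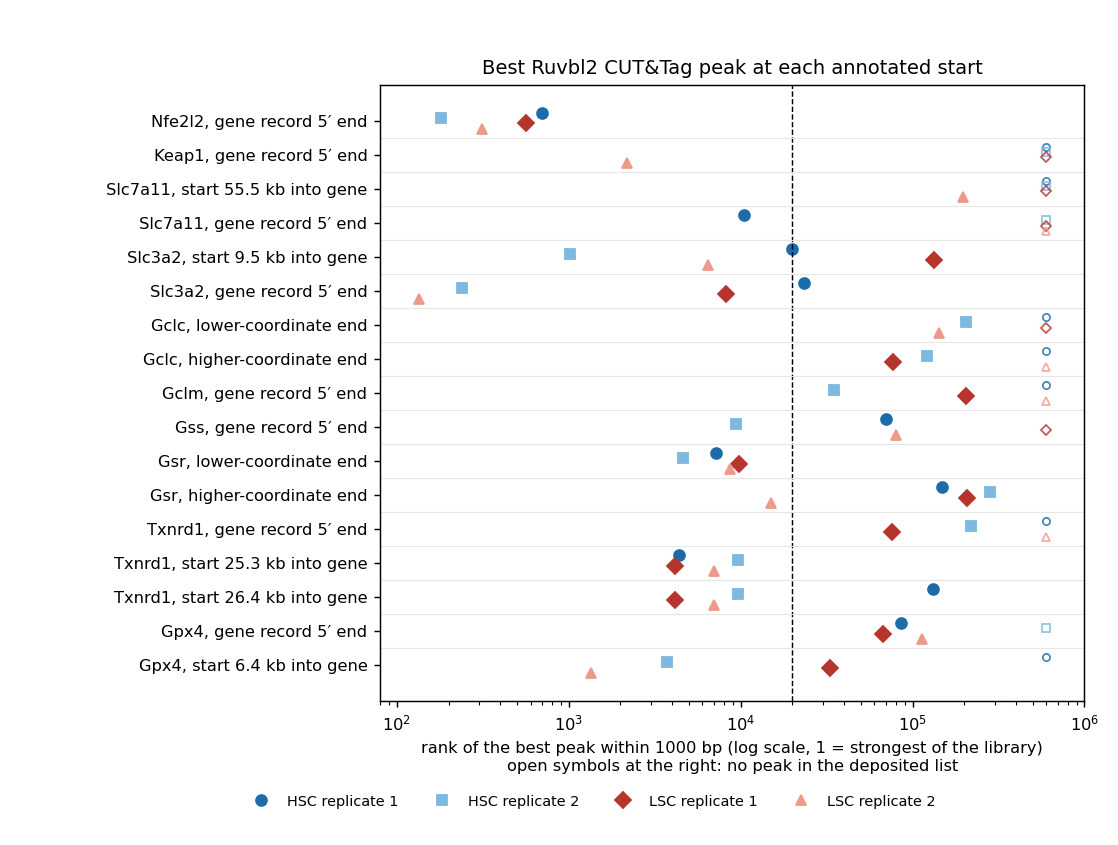
Best peak rank within 1000 bp of each 5′ end or annotated start of the 10 genes, with both ends for Gclc and Gsr. Starts of a gene with the same ranks are drawn once. The x axis is logarithmic with the strongest peaks at the left, and each library has 1 symbol. The dashed line is rank 20000 and open symbols mark no peak. Nfe2l2 lies between rank 180 and rank 701 in the 4 libraries, while Keap1 has a start peak in LSC replicate 2 only.

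Slc7a11 (chromosome 3, 50364936 to 50499087, minus strand), the transport subunit of the cystine importer, had the sparsest peaks of the 10 genes, 3.18 per 10 kb over the 4 libraries together. The 5′ end of its record had a peak in HSC1 only, at 50499922 to 50500598 (rank 10475, fold 31.7, pileup 115), with the summit 1452 bp before the end. The start in the promoter table, 55.5 kb further into the gene, had a peak in LSC2 only, at rank 195727 with a pileup of 20. Its strongest peak lay inside the gene in HSC2 (50420574 to 50421028, rank 5944). Of its 44 merged regions, which are stretches covered by peaks that touch across libraries, 39 came from 1 library and 0 from 3 or 4.

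Slc3a2 (chromosome 19, 8706882 to 8723369, minus strand), the heavy chain shared by several amino acid transporters, contrasted with its partner. At the 5′ end of its record the ranks were 23432 in HSC1, 239 in HSC2, 8190 in LSC1 and 135 in LSC2, with pileups of 77, 310, 249 and 491. HSC1 alone fell below its 20000 listed peaks, and ranks of lists of different length are given side by side without a comparison. The 4 peaks overlapped in all 6 pairs over 8722976 to 8723290 (315 bp), and the summits of HSC2, LSC1 and LSC2 stood on 1 base, 8723286, which lies 83 bp inside the gene. The noncoding gene Snhg1, which hosts small nucleolar RNAs, ends within 1000 bp of these peaks, so the peak cannot be given to Slc3a2 alone. The second annotated start, 9.47 kb into the gene, had peaks in all 4 libraries at ranks 19991, 1022, 134186 and 6474, all 6 pairs overlapping over 389 bp. A region between the 2 starts (8717396 to 8718543) also had peaks in all 4 libraries and was listed in 3, with its highest rank, 6040, in LSC1.

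Gclc (chromosome 9, 77754535 to 77794489), which encodes the rate-limiting catalytic subunit of glutathione synthesis, had no listed peak at either end in any library. Its end peaks ranked 205205 in HSC2 and 141721 in LSC2 at the lower end, and 121459 in HSC2 and 76665 in LSC1 at the higher end. The table gives no strand for Gclc, so which end is the start is not stated here. The strongest Gclc peak was found in LSC1 alone, inside the gene at 77787838 to 77788126 (rank 929, fold 96.1, pileup 524). LSC2 had 3 listed peaks in the flank beyond the lower end, at ranks 10500, 18856 and 19498, and no peak of LSC1 was listed there.

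Gclm (chromosome 3, 122245487 to 122267215, plus strand), the modifier subunit, resembled Gclc in having no listed start peak. HSC2 had a peak across the start at rank 34745 (122245135 to 122245665, fold 11.0), which covers the whole printed promoter with its element core. LSC1 had one at rank 204922 upstream of it, and the 2 peaks did not overlap. Within the flank downstream of Gclm, at the neighbouring Dnttip2, all 4 libraries had a peak, at ranks 104482, 8601, 38874 and 1817. That region is nearer to Dnttip2 than to Gclm.

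Gss (chromosome 2, 155563181 to 155592810, minus strand), which joins glycine to the dipeptide in the last step of synthesis, had start peaks in 3 libraries. The ranks were 69902 in HSC1, 9403 in HSC2 and 80473 in LSC2, and LSC1 had no peak there. The summits lay 351, 62 and 118 bp before the start, and 2 of the 3 pairs overlapped. Its 3′ end, beside the neighbouring Acss2, had peaks in all 4 libraries at ranks 25286, 64174, 62762 and 62557, none of them listed. Its strongest peak was inside the gene in LSC1 (155584348 to 155584757, rank 2779), and was absent from the other libraries' lists.

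**Figure D2:**
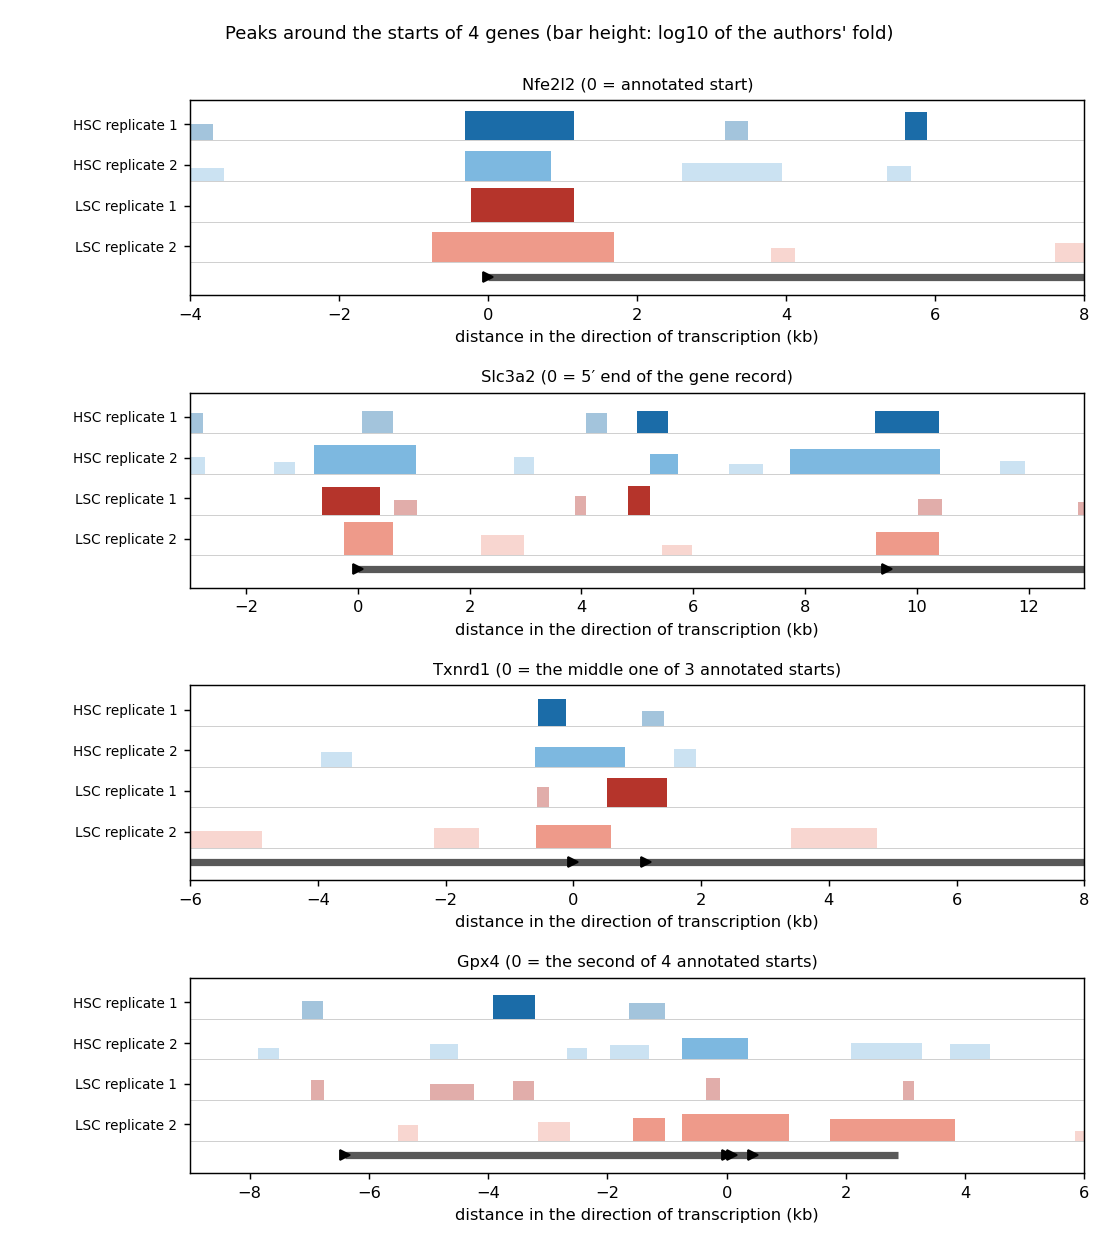
Peaks of the 4 libraries (1 line each) around starts of Nfe2l2, Slc3a2, Txnrd1 and Gpx4, with distance in kb on the x axis, bar height the log10 of the deposited fold, full colour for listed and pale for other peaks, and arrowheads on annotated starts along the grey gene. The Nfe2l2 peaks of all 4 libraries cover the start and share 1077 bp, whereas at Gpx4 the listed bars over the internal start belong to the replicate 2 libraries.

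Gsr (chromosome 8, 33653238 to 33698162), which encodes glutathione reductase, was the other member listed at an end in all 4 libraries. At the lower-coordinate end the strongest peaks ranked 7158 in HSC1, 4644 in HSC2, 9751 in LSC1 and 8700 in LSC2, with folds of 36.9, 18.7, 41.4 and 22.9 and pileups of 134, 99, 225 and 107. Both HSC ranks were above both LSC ranks, the nearest being 7158 and 8700, but the lists differ in length. The pileups rest on different backgrounds. The peaks were less alike in position: 4 of the 6 pairs overlapped, and the summits lay 420, 1483, 130 and 1400 bp below the end. The noncoding gene Gm33433 ends within 1000 bp of all of them. As for Gclc, no strand is given, and the higher end had ranks of 147928, 283531, 208430 and 14952.

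Gsr also had the most peaks of the 10 genes per length, 12.5 per 10 kb, and 4 of the 13 member regions found in all 4 libraries. The strongest was inside the gene, at 33663454 to 33665195, with ranks of 936, 746 and 1953 in HSC1, HSC2 and LSC1. LSC2 ranked 103662 there (fold 9.11, pileup 42), so LSC2 stood apart from the other 3 libraries, LSC1 among them. A region at 33660191 to 33660968 was listed in HSC1 only (rank 2830), although all 4 libraries had a peak in it.

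Txnrd1 (chromosome 10, 82833951 to 82897724, plus strand), the cytosolic thioredoxin reductase and an NRF2 target, was listed at an internal start in all 4 libraries and at the 5′ end of its record in none. At the start 25.3 kb into the gene the strongest peaks ranked 4377, 9659, 4131 and 6969 in HSC1, HSC2, LSC1 and LSC2, with folds of 42.6, 15.2, 63.7 and 24.1. All 4 were listed, and 5 of the 6 pairs overlapped, the exception being HSC1 with LSC1. In LSC1 the peak lay to the right of the start (82859730 to 82860679) and a weaker one (rank 53245) to its left, and the predicted gene Gm38560 ends within 1000 bp of both. The outer end of the record had peaks in HSC2 (rank 218470) and LSC1 (rank 75457) only. A further region in the flank past the 3′ end, at 82899501 to 82900307, had peaks in all 4 libraries at ranks 330, 601, 3524 and 20995, the first 3 listed.

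Gpx4 (chromosome 10, 80047166 to 80056439, plus strand), the enzyme that reduces lipid peroxides with glutathione, was listed at an internal start in both replicate 2 libraries and in neither replicate 1 library. At the start 6.40 kb into its record, HSC2 ranked 3741 (fold 19.8, pileup 105) and LSC2 ranked 1357 (fold 44.3, pileup 208). LSC1 ranked 33196 (fold 22.5, pileup 122) and HSC1 had no peak there. The 3 peaks overlapped in 3 of 3 pairs and shared 80053221 to 80053448 (228 bp), which includes part of the printed promoter. Of 2 further annotated starts, at 80053659 and 80054011, the LSC2 peak covered both and the HSC2 peak the first. The outer end of the record had weak peaks in HSC1, LSC1 and LSC2, at ranks 85864, 67173 and 114183. The strongest peak in the Gpx4 window was in the upstream flank at the end of the neighbouring Polr2e. It ranked 352 in HSC1 and 5598 in HSC2, and no LSC peak overlapped it. This region was singled out after its values were seen.

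**Figure D3:**
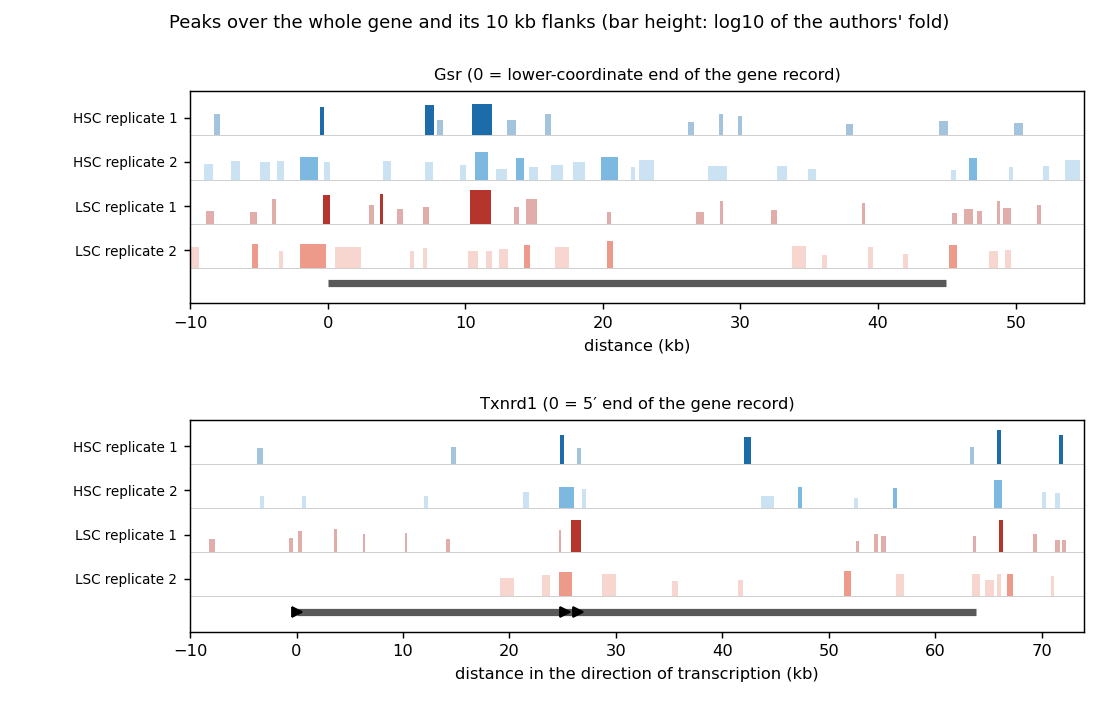
Peaks of the 4 libraries (1 line each) over Gsr and Txnrd1 with their 10 kb flanks, with distance in kb from an end of the gene record on the x axis, bar height the log10 of the deposited fold, and full colour for listed peaks. Gsr has 81 peaks in the 4 libraries together and Txnrd1 51, with listed Gsr peaks inside the gene in every library and listed Txnrd1 peaks around the internal start.

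Peaks were spread over all 10 genes, from 19 at Keap1 and 23 at Gclm to 49 at Slc7a11, 51 at Txnrd1 and 81 at Gsr. Per 10 kb of window Gsr had 12.5, Gpx4 11.6, Slc3a2 9.32 and Nfe2l2 8.34 over the 4 libraries together, against 3.18 at Slc7a11, the longest gene. Gsr had the most listed peaks (16), followed by Txnrd1 (13), Slc3a2 (11) and Nfe2l2 (9), while Slc7a11 and Gclm had 3 each. Of all 389 peaks, 194 lay inside a gene away from its starts and ends and 122 in a flank. Counted within 1000 bp, 25 lay at the 5′ end of a record, 15 at another annotated start and 19 at a 3′ end. Another 14 lay within 1000 bp of the ends of Gclc and Gsr, for which no strand is given. Member peaks were 180 to 2963 bp wide, with medians of 422, 571, 356.5 and 494 bp in HSC1, HSC2, LSC1 and LSC2. Peaks of all coding gene windows had medians of 397, 474, 336 and 463 bp. The median fold of member peaks was 15.6, 7.30, 10.7 and 13.8, beside 13.4, 6.18, 11.5 and 9.32 over all coding gene windows, so LSC1 was the library in which members lay below the background.

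A listed peak within 1000 bp of the 5′ end of the gene record, or of either end where no strand is given, was found for 3 members in HSC1, namely Gsr, Nfe2l2 and Slc7a11 (8.55% of all genes). The count was 4 in HSC2, namely Gsr, Gss, Nfe2l2 and Slc3a2 (22.5% of all genes), and 3 in LSC1, namely Gsr, Nfe2l2 and Slc3a2 (8.70%). It was 4 in LSC2, namely Gsr, Keap1, Nfe2l2 and Slc3a2 (23.1%). The share of all genes was thus alike within a replicate number and not within a cell type. Nfe2l2 and Gsr were listed in all 4 libraries, as were 2.45% of all genes, and the count stayed at 2 without any 1 library except HSC1, without which Slc3a2 joined them. Any deposited peak in all 4 libraries was found for 3 members, Slc3a2 included (10.2% of all genes). With the summit itself required inside the window, 0 members were listed in all 4 libraries. The Nfe2l2 summits of both replicate 1 libraries lay just beyond 1000 bp, and the listed Gsr summit of HSC2 lay 1483 bp from the lower end. The Gsr summit of LSC2 lay 1400 bp from that end. LSC2 stayed listed for Gsr through the higher end (rank 14952, summit 528 bp away).

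With every annotated start counted, an alternative added after the data were seen, 5 members were listed in HSC1 (9.44% of all genes), 6 in HSC2 (24.2%), 4 in LSC1 (9.72%) and 6 in LSC2 (24.9%). Slc3a2, through a second start that ranked 19991 in HSC1, and Txnrd1 then joined Gsr and Nfe2l2 as listed in all 4 libraries (2.77% of all genes), and Gpx4 joined them among the 5 with any peak in all 4 (12.0%). Gpx4 did so through different starts, since HSC1 had a peak only at the outer end and HSC2 only at the internal starts. The same 4 genes were those with a listed peak anywhere in the gene body or flanks in all 4 libraries (18.1% of all genes). All 10 members had at least 1 peak there in all 4 libraries, as did 83.0% of all genes.

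No member was listed in both libraries of 1 cell type and in neither library of the other. At the 5′ ends 0.749% of all genes were listed in both LSC libraries only and 0.736% in both HSC libraries only, and with every start counted the shares were 0.882% and 0.804%. Against shares this small, a count of 0 among 10 genes is no result about the members. Within replicate 1, Slc7a11 was listed in HSC only and Slc3a2 in LSC only, and within replicate 2, Gss was listed in HSC only and Keap1 in LSC only. Shares of all genes listed in only 1 library of such a pair were not computed. These counts are therefore no result about the members. In being listed or not, none of the 4 differed in the same direction at both replicate numbers. At its 5′ end Slc3a2 ranked 23432 in HSC1 and 8190 in LSC1, and 239 in HSC2 and 135 in LSC2. Gss ranked 69902 in HSC1 with no peak in LSC1, and 9403 in HSC2 and 80473 in LSC2. In order alone, both genes went the same way at both replicate numbers, for Gss through an absent LSC1 peak. The lists differ in length, and the share of all genes doing so was not computed. This order is therefore no result about the members. Slc7a11 had a 5′ end peak in HSC1 alone and Keap1 in LSC2 alone. With 2 libraries per group the smallest two-sided exact permutation p is 0.333, so no test was made and none of these differences is called.

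The 389 peaks merged into 264 regions. Of these, 196 were found in 1 library (74.2%, against 81.7% of the 404676 regions in all gene windows) and 13 in all 4 libraries (4.92%, against 0.872%). The 13 lay in Gsr (4), Slc3a2 (3), Nfe2l2 (2), Txnrd1 (2), Gss (1) and Gclm (1). Both HSC libraries and neither LSC library had 9 regions (3.41%, against 2.16% of all regions), in Gpx4, Gss, Nfe2l2, Slc7a11 and Txnrd1. Both LSC libraries and neither HSC library had 3 regions (1.14%, against 2.16%), in Gsr and Nfe2l2. The pairs that share a replicate number gave 3 regions for HSC1 and LSC1 (1.14%, all regions 1.37%). Replicate 2 gave 11 (4.17%, all regions 4.06%), so pairs within a cell type were no more frequent than that pair. Pairs that share neither cell type nor replicate number gave 9 regions for HSC2 and LSC1 (3.41%, all regions 3.10%). HSC1 and LSC2 gave 1 (0.379%, all regions 1.46%). Member windows also held more peaks per length than the median gene, 1.08 against 0.735 per 10 kb in HSC1 and 1.59 against 1.09 in LSC2. The part of this density in the sharing of regions was not tested.

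**Figure D4:**
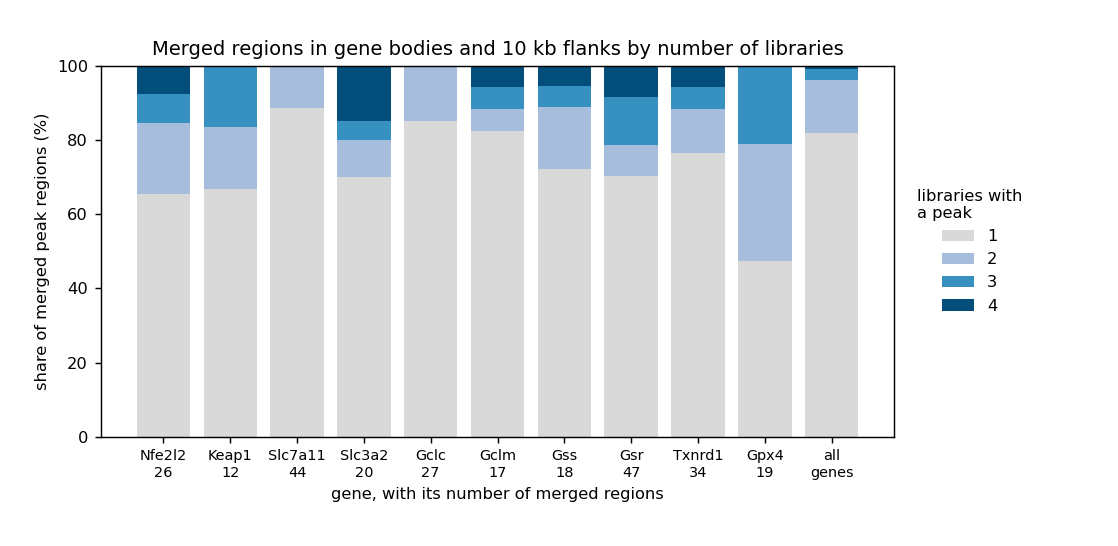
Share of merged regions, in percent, with a peak in 1, 2, 3 or 4 libraries, as stacked bars for each of the 10 genes (its number of regions below it) and for all gene windows. Regions found in 1 library make up 39 of 44 at Slc7a11 and 81.7% over all genes, and the darkest part, regions in all 4 libraries, is seen at 6 of the 10 genes.

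The share of member peaks that were listed was 25.4% in HSC1, 18.4% in HSC2, 10.6% in LSC1 and 27.8% in LSC2. Over all coding gene windows it was 13.8%, 9.01%, 10.5% and 12.1%, so LSC1 stood close to its background and the other 3 libraries above theirs, with no test. Of the 77 listed member peaks, 27 lay inside a gene, 22 in a flank and 12 within 1000 bp of a 5′ end. Of the member peaks of HSC1, 47.6% overlapped a peak of HSC2, which is 24.8% of the latter's, and 34.9% overlapped a peak of LSC1 (22.1% of the latter's). Of those of LSC1, 21.2% overlapped a peak of LSC2 (22.7% of the latter's). For HSC2 and LSC2 the shares were 32.8% and 39.2%. Over all peaks the shares were 16.7% and 9.19% for HSC1 and HSC2, 10.6% and 7.99% for HSC1 and LSC1, 12.3% and 12.2% for LSC1 and LSC2, and 14.5% and 19.9% for HSC2 and LSC2. The 2 LSC libraries overlapped less than HSC2 and LSC2 did over all peaks too, so that order is not a result about the members.

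The rest of the pathway was read from 31 genes in 4 groups. A listed peak at the start was found for 4, 14, 4 and 14 of them in HSC1, HSC2, LSC1 and LSC2. The shares of all genes by the same criterion were 8.55%, 22.5%, 8.70% and 23.1%, and the group counts that follow stand against these too. In all 4 libraries it was found for 2 of the 31 (6.45%), beside the 2.45% of all genes given above. For 14 of the 31 it was found in no library. The share of all genes listed in no library was not computed, so that count is no result about these genes. KEAP1-NRF2 regulation was the group most often listed, at 2, 6, 3 and 8 of its 8 genes, and classical NRF2 targets were listed for 1, 3, 0 and 3 of 10. Genes of glutathione and cysteine supply and use were listed for 1, 2, 1 and 3 of 8, and those of selenoprotein synthesis for 0, 3, 0 and 0 of 5. Rbx1, the RING subunit of the ligase that KEAP1 serves, was listed in all 4 libraries at ranks 16054, 554, 18217 and 290. Gpx1, a selenium-dependent peroxidase of soluble peroxides, was the other, at ranks 1059, 275, 217 and 937. Nfe2l1, which encodes an NRF2 relative, ranked 577, 3138 and 420 in HSC2 and the LSC libraries and had no start peak in HSC1. Sqstm1, the p62 protein that draws KEAP1 into autophagy, ranked 124404, 3106, 10368 and 1666. Gstm1 ranked 136, 1651, 185769 and 322, though it belongs to a family of similar copies that reads may not tell apart, and Txn1, the thioredoxin that Txnrd1 reduces, ranked 29682, 1058 and 1331 with no peak in LSC1. Ggct ranked best at 1651 and Slc1a5 at 5597, both in LSC2, while Secisbp2 ranked 1905 and Sephs2 11012, both in HSC2. No gene of the 31 was listed in both libraries of 1 cell type only, which beside 0.749% of all genes for LSC and 0.736% for HSC is no result about these genes.

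Likeness to the 2 members listed in all 4 libraries was measured as the largest difference in log10 rank over the 4 libraries. It was taken among 2127 other genes with a start peak in each library, with predicted genes passed over. For Gsr the nearest were Napsa (0.167), Hspa1b (0.184) and Adgre5 (0.201). For Nfe2l2 they were Rab5b and Pmel (both 0.240, the same peaks) and Rab40c (0.351). The differences rest on 4 ranks per gene.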

How the data were processed

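Ruvbl2 CUT&Tag peaks were taken from 2 HSC and 2 LSC libraries, made from 2000 to 5000 cells each with 17 to 20 PCR cycles per the labels' protocols. Per the submitters' processing notes, FastQC 0.11.5, Bowtie2 2.2.9, MACS2 and ChIPseeker were used on mm10; the calling threshold and the handling of duplicates were not given in the sources used here. The authors called peaks per library. The deposited score is a whole number tied to the −log10 q-value, the deposited fold is a ratio of summit pileup to background, and the deposited −log10 p-value and −log10 q-value are the authors' own peak values. The weakest −log10 q in the 4 lists was 5.31, 5.58, 5.07 and 5.07.

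From these files, peaks (autosomes, X and Y) were ranked by −log10 p. Summit pileups were recovered from the fold (whole within 0.05 for 100% of peaks with a fold under 10). Gene records and promoters came from RefSeq tables of GRCm38.p6, with strand for 17492 of 21887 genes, 8 members among them. Windows reached 1000 bp to each side of a start and 10 kb beyond a gene, and overlap meant at least 1 bp. All 10 members are described, and 31 further genes were named where listed in all 4 libraries, in 1 cell type only, or as the 2 best-ranked others of a group. The members and lists were chosen with earlier results of these data known. Python 3.11.15, pandas 2.3.3, numpy 2.4.6, scipy 1.17.1 and matplotlib 3.10.9 were used, and the overlap code was checked on simulated data. Sequencing depth is unknown. Alternatives were other list lengths, rankings, windows, overlaps and each library left out.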

Additional observations from a re-analysis of the deposited data

How the results depend on the processing

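Of 95 values under alternatives, 75 stayed within 1.5 times or unchanged and 20 moved. The 75 include counts of members in 1 cell type only that stayed at 0, which are no result about the members. With the full lists, the members with a start peak numbered 6, 7, 7 and 7 in HSC1, HSC2, LSC1 and LSC2, since every peak then counts. The shares of all genes by that criterion were 28.2%, 54.2%, 35.6% and 49.9%. For HSC1 the count of 3 became 5 with a 3000 bp window, 1 with the summit inside the window and 5 with every annotated start, an alternative added after the data were seen. The 2 members listed in all 4 libraries became 0 with the summit inside the window and 4 with every annotated start. The 3 with any peak in all 4 libraries became 6 with both annotated ends and 5 with every start. Shares of all genes with every start are given above. They were not computed for the 3000 bp window, the summit setting, both annotated ends or leaving out a library. Counts under those settings are no result about the members. The 13 regions in all 4 libraries became 8 with 50% overlap, 1 with summits within 200 bp and 3 with the 20000 strongest peaks. The 196 regions in 1 library became 34 with the 20000 strongest peaks and 129 in gene bodies only. Fewer peaks enter under both of these settings. The total of merged regions also differed between settings, so these counts do not show whether the share of regions moved. Shares of all regions in gene windows were not computed under these settings or without a library. Region counts under them are therefore no result about the members. Apart from the full lists, the cause of the values that moved was not tested.

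Leaving out each library in turn gave 2 to 3 members listed in all remaining libraries and 3 to 4 with any peak in them, 13 to 19 regions shared by all of them and 156 to 187 in 1 library. Members listed in 1 cell type only went from 0 to between 0 and 1 for LSC (Slc3a2 without HSC2, Keap1 without LSC1) and between 0 and 1 for HSC (Gss without HSC1, Slc7a11 without HSC2). Counts per library have no such value. No paired analysis was possible because the results come from no test, and the values within each replicate number were only set side by side. Peak lists hold no counts where no peak was called, so an absent peak may be one just below the authors' threshold.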

Other observations

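Exact coincidences of position between libraries were rare. Over the genome the summits of HSC2 and LSC2 fell on the same base for 181 peaks, and those of HSC2 and LSC1 for 101. Among the members' peaks, Slc3a2 gave 1 such coincidence in each pair of HSC2, LSC1 and LSC2, all at base 8723286. Peaks of HSC1 and LSC1 began at the same base 614 times over the genome and 1 time among the members, at Nfe2l2.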
